A study of Mus musculus with 6 samples.

Results

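Metallothionein genes, the activator that reads zinc for them and the plasma membrane zinc exporter were followed in cultured mouse pancreatic buds. The members were the rows of the deposited table named Mt1, Mt2, Mt3, Mtf1 and Slc30a1, which are 5 of 54532 genes, and all 5 passed the filter on low counts that left 18226 genes for testing. They were chosen with earlier results of the same comparison known, Mt1 having been among the genes lower with treatment. The TBZ over control values of the members are therefore a description, and their p-values from the fit across all genes are not independent evidence.

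The treated group was buds given 0.1 µM tetrabenazine (TBZ), an inhibitor of the vesicular monoamine transporter VMAT2, for the whole culture, in 3 libraries. The control group was buds given the DMSO vehicle alone, also in 3 libraries. Buds of both groups came from mouse embryos at E12.5 and spent 2 days in M199 medium without phenol red, with 10% fetal bovine serum and 0.1% DMSO, so the controls carried the vehicle and the serum too. The labels name no strain and do not say how many buds made up a library or whether replicates came from different litters. The p-values therefore rest on the variation among these 6 libraries, which may be technical. The comparison addresses the effect of blocking VMAT2, and with it monoamine storage, on pancreas development.

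Metallothioneins are small cysteine-rich proteins that bind zinc and copper and buffer the free metal in a cell. When free zinc rises, MTF1, a zinc finger factor encoded by Mtf1, enters the nucleus and binds metal response elements in the promoters of Mt1, Mt2 and Slc30a1. Slc30a1 encodes ZnT1, which carries zinc out of the cell. Metallothionein genes also answer to oxidative stress and glucocorticoids, and the endocrine and acinar cells that the bud gives rise to handle much zinc, in insulin granules and in zinc-dependent digestive enzymes.

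The metallothionein genes lie together on chromosome 8 (mm10, plus strand) within 43131 bases. Mt3 is at chr8:94152607-94154146, Mt2 at chr8:94172664-94173568 and Mt1 at chr8:94179082-94180327, with 5513 bases between Mt2 and Mt1. Mt4, the metallothionein of stratified squamous epithelium and no member here, starts the row at chr8:94137197-94139031. Mtf1 is at chr4:124802104-124849800 and Slc30a1 at chr1:191906767-191913247, both on the plus strand. All 6 are annotated as protein coding.

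The promoters of 4 members are shown because Mt1 and Slc30a1 are known targets of one activator and differed in size of change, and because Mt2 and Mt3 neighbour Mt1. Each run is the RefSeq window (GRCm38.p6, plus strand) of 250 bases before and 50 bases from the start of the gene, 5′ to 3′. Capitals mark matches to the core of the metal response element, searched as TGCGCNC or TGCACNC on both strands. The windows are chr8:94178839-94179138 for Mt1, chr8:94172368-94172667 for Mt2, chr8:94152357-94152656 for Mt3 and chr1:191906531-191906830 for Slc30a1.
Mt1: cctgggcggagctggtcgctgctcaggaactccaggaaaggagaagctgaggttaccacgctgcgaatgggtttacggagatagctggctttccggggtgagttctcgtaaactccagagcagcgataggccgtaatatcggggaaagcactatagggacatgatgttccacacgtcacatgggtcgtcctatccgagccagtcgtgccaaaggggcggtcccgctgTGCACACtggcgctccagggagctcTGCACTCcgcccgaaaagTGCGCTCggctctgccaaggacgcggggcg
Mt2: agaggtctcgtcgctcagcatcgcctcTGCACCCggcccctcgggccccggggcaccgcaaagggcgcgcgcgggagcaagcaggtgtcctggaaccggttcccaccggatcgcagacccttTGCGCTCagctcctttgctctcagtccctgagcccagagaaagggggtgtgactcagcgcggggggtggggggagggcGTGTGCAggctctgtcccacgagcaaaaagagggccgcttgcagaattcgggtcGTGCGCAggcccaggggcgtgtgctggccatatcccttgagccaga
Slc30a1: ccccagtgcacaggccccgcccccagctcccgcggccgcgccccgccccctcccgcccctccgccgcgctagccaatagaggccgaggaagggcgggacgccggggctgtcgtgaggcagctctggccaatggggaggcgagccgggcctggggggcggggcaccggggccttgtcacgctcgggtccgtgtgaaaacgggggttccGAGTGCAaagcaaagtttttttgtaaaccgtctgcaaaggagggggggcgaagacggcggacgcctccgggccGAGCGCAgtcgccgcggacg
Mt3: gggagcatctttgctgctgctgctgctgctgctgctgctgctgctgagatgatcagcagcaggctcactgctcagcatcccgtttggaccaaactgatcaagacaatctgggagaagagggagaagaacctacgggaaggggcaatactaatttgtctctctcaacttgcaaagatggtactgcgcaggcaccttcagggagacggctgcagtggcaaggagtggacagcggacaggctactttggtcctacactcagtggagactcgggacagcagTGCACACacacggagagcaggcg

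The Mt1 window held 3 matches, all on the strand of the gene, the first 23 bases before the RefSeq start and the others 2 and 20 bases after it. The Mt2 window held 4 matches, 2 on each strand, and that of Slc30a1 held 2, both on the opposite strand. The Mt3 and Mt4 windows held 1 match each and the Mtf1 window held 0. Among 32851 RefSeq promoter windows of the same length, 25.7% held at least 1 match, 7.11% at least 2, 1.97% at least 3 and 0.517% at least 4. The antioxidant response core, searched as TGACNNNGC on both strands, was found 1 time in the windows of Mt2 and Slc30a1 and 0 times in those of Mt1, Mt3, Mt4 and Mtf1, against at least 1 match in 12.4% of all windows. A match is a string of letters and not a bound site, and bases outside the window were not searched. The RefSeq starts of Mt1 and Mt2 may lie upstream of their main start sites, so further matches to both cores may lie beyond these windows. The count of 0 antioxidant response cores for Mt1 holds for its window only and does not show that its promoter lacks one.

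**Figure D1:**
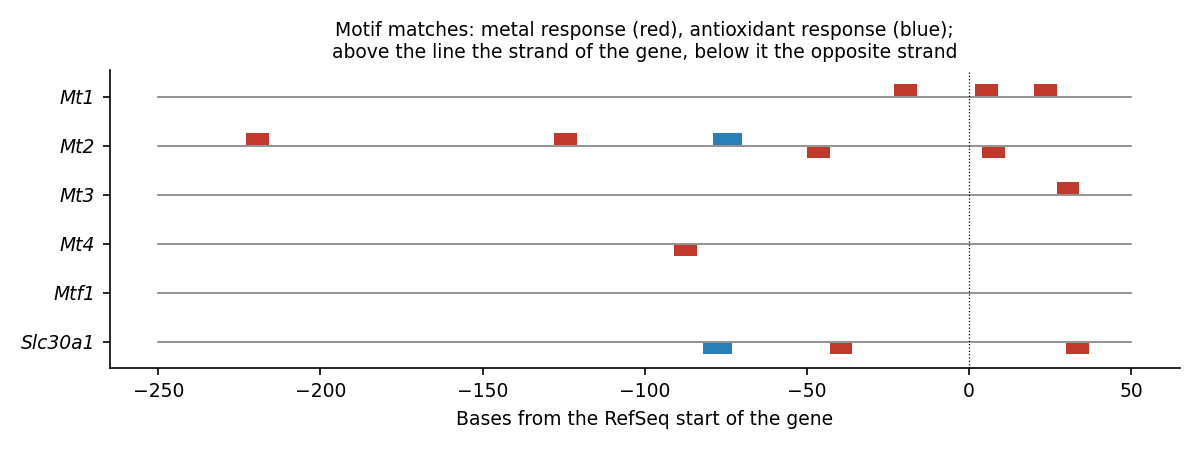
Motif matches in the promoter windows of the members and Mt4, by distance in bases from the RefSeq start (dotted line), with red boxes for the metal response core and blue boxes for the antioxidant response core; boxes above a line are on the strand of the gene. Mt1 has 3 red boxes near the start, Mt2 has 4, Slc30a1 has 2 and Mtf1 has 0.

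Depth and tissue bear on every value. TBZ libraries held 35825033 to 40973254 counted reads and control libraries 41005819 to 50620936, so the controls were deeper. Control replicate 3 (36.7) and TBZ replicates 1 and 3 (-25.5 and -26.3) stood apart from the other 3 libraries (3.98 to 5.75) on the first principal component, which held 34.7% of the variance. The labelled tissue had its markers. All 8 fixed markers of pancreatic epithelium were tested, 8 had a positive log2 fold change and edgeR with its filter called 1, Cpa1, higher. Their summed level was 2668 to 2941 CPM (counts scaled by library size, here with TMM factors) in TBZ and 2131 to 2277 CPM in control. Cpa1 alone was at 1332 to 1521 CPM in TBZ and 984 to 1116 CPM in control. Of the 8 markers, 5 were higher in TBZ without overlap, against 8.47% of all tested genes. DESeq2 called 4 of them higher, where it called 1.43% of all genes in either direction. Without the filter edgeR called Cpa1, Nkx6-1, Pdx1, Cdh1 and Sox9 higher (adjusted p up to 0.0173). Of 6 mesothelial markers, 6 had a negative log2 fold change with none called by edgeR with its filter. Their sum was 282 to 348 CPM in TBZ and 313 to 411 CPM in control. Of these Krt19 was at 41.6, 47.7 and 42.2 CPM in TBZ and at 47.7, 44.7 and 95.6 CPM in control. Without the filter edgeR called Krt19 lower (adjusted p = 0.0112). The sum of 8 liver markers, a tissue rich in metallothionein, was 23.95 to 33.5 CPM in TBZ and 25.5 to 35.0 CPM in control. The stomach and oesophagus markers summed to 73.7 to 86.6 CPM in TBZ and 64.2 to 123 CPM in control, the highest being control replicate 3. Gata4, at 53.6 to 75.0 CPM across libraries, made up most of that sum in every library but control replicate 3. Sox2, a marker of stomach and oesophagus epithelium, stood at 0.818, 1.52 and 0.420 CPM in TBZ and 2.35, 2.35 and 12.7 CPM in control (log2 -2.62 ± 0.73 SE, edgeR adjusted p = 0.260), without overlap. Pitx1 stood at 1.51, 7.24 and 1.29 CPM in TBZ and 5.93, 6.72 and 47.8 CPM in control (log2 -2.56 ± 0.89 SE, edgeR adjusted p = 0.400), with overlap, and edgeR without the filter called both lower. Sums for macrophages were 349 to 449 CPM in TBZ and 358.5 to 453.5 CPM in control. Erythroid markers summed to 307 to 377 CPM in TBZ and 369 to 427 CPM in control. Mesenchyme markers summed to 5732 to 6557 CPM in TBZ and 5735 to 6470 CPM in control, and endothelial markers to 364 to 393 CPM in TBZ and 362 to 367 CPM in control. Every marker of these lists had a read in at least 1 library, and the part of these cells in the results was not tested.

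Mt1 was the metallothionein that these libraries measured well, and it was lower in every TBZ library. Its level was 103, 92.5 and 99.4 CPM in TBZ replicates 1 to 3, against 150.5, 167 and 190.1 CPM in control replicates 1 to 3. The highest TBZ library lay well below the lowest control, and the 3 TBZ libraries were closer together than the controls, with a coefficient of variation of 5.33% in TBZ and 11.8% in control. The means were 98.3 ± 5.24 CPM in TBZ and 169 ± 19.95 CPM in control (SD, n = 3 each). The log2 fold change was -0.78 ± 0.08 (SE), with a 95% interval of -0.94 to -0.62, a difference of -41.9%. In the edgeR quasi-likelihood test across all genes the adjusted p was 0.0101, and Mt1 ranked 7 of 18226 by p. In bulk tissue, fewer cells that express a gene and less RNA per cell cannot be told apart.

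The Mt1 call was the only one among the 5 members. Over all genes 0.187% were called in either direction and 0.0329%, or 6 genes, were called lower, and since the members were chosen from this contrast nothing is read from that count. The members with an unadjusted edgeR p under 0.05 were Mt1, Mt3 and Slc30a1, against 9.61% of all tested genes in either direction and 4.54% in the lower one. Without TBZ replicate 3 the Mt1 adjusted p was 0.0995 at a log2 fold change of -0.79. With limma on log2(FPKM + 0.5) and no filter on FPKM the adjusted p was 0.160 at -0.78. Without the 3 libraries that stand apart it was 0.00721 at -0.78, with 1 TBZ library left that is assumed to vary like the controls. In the authors' deposited table Mt1 has a log2 fold change of -0.78 with an adjusted p of 4.42e-18.

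**Figure D2:**
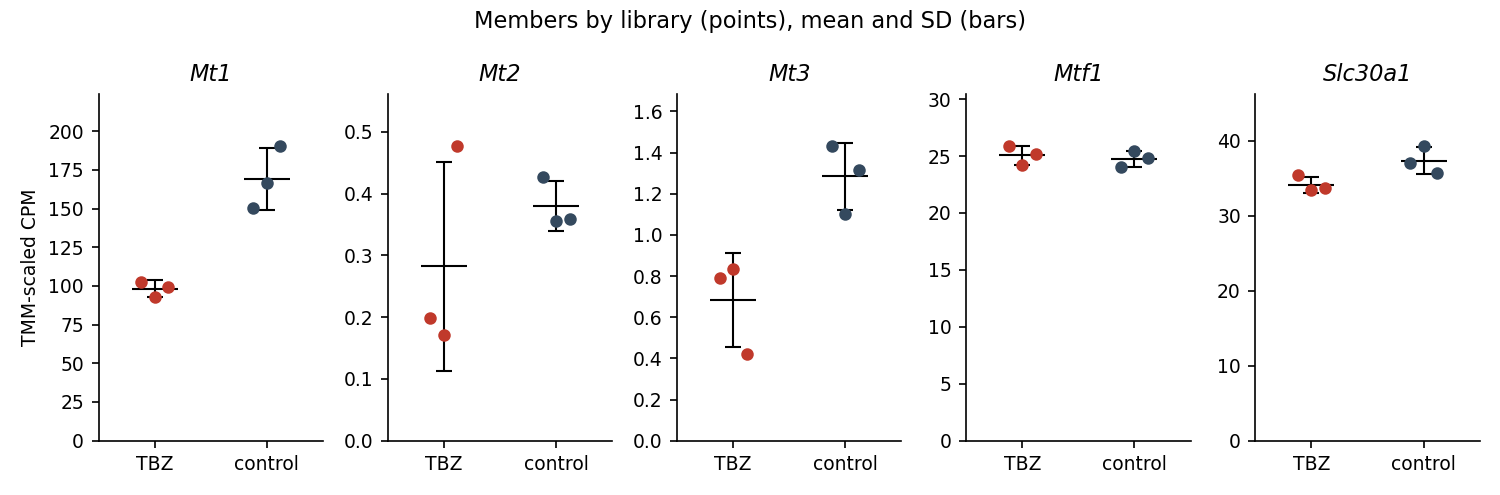
TMM-scaled CPM of each member in the TBZ libraries (red, left) and the control libraries (dark, right), 1 point per library, with the mean and SD as bars and each axis starting at 0. Mt1 is at 92.5 to 103 CPM in TBZ and at 150.5 to 190.1 CPM in control, while Mtf1 overlaps between the groups.

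The values of Mt2 are uncertain. The deposited counts of Mt2 were 8, 7 and 17 in TBZ replicates 1 to 3 and 20, 18 and 15 in control replicates 1 to 3. Per length, in FPKM, the level of Mt1 was 98.5 to 254 times that of Mt2 within the TBZ libraries and 166 to 249.9 times within the control libraries. In mouse tissues Mt2 is known to be induced together with Mt1. In GENCODE M21 an antisense gene, Gm45774, at chr8:94170748-94173412 on the minus strand, covers 432 of the 588 exonic bases of Mt2, or 73.5%. Only 57 of 15172 tested protein-coding genes, 0.376%, had as large a share of their exons under another gene.

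**Figure D3:**
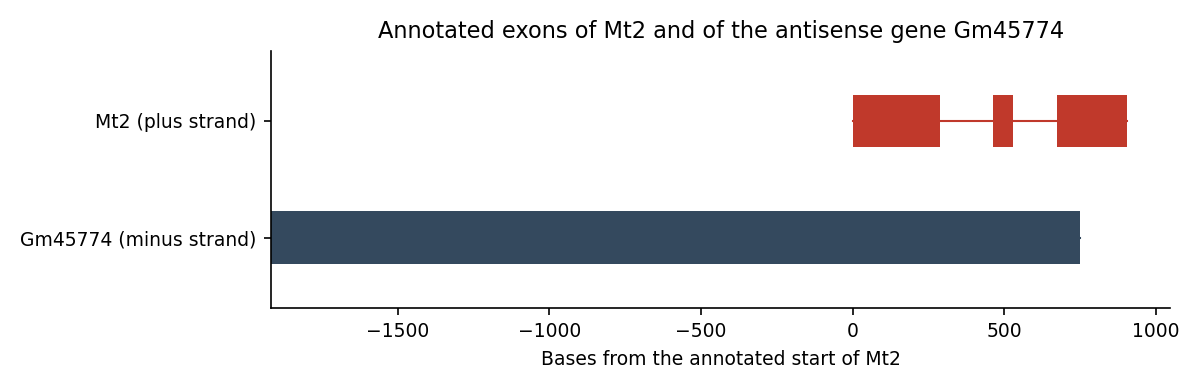
Annotated exons of Mt2 (red) and of the single-exon antisense gene Gm45774 (dark), in bases from the annotated start of Mt2. The exon of Gm45774 covers the first 2 exon blocks of Mt2 and the start of the third, 432 of 588 bases.

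The library steps in the labels name none that marks strand, and the strand setting of the counting is not given. Reads of Mt2 and of Gm45774 may therefore not have been told apart where they overlap. How the counting treated reads under both genes is not given in the sources used here, and the part of the overlap in the low counts was not tested. Gm45774 itself had 1, 6 and 13 counts in TBZ and 10, 22 and 5 counts in control. The log2 fold change of Mt2 was -0.45 ± 0.43 (SE, edgeR adjusted p = 0.775), the groups overlapped, and the 95% interval of -1.29 to 0.39 holds both a fall as large as that of Mt1 and no change. The level and the response of Mt2 are therefore not read from these values.

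For Mt1 and Mt3 the annotation showed no such overlap. In 1292 distinct stretches of 50 bases from Mt1 transcripts, 0 occurred in transcripts of any other gene, and the same held for the 1065 of Mt3. Antisense genes covered 8.1% of the exonic bases of Mtf1 and 8.9% of those of Slc30a1, and reads there may not have been told apart by strand.

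Mt3 encodes a metallothionein best known from brain, where it holds zinc in neurons. It was scarce in the buds, where 7 markers of neurons and glia summed to 199 to 213 CPM in TBZ and 169.6 to 208 CPM in control. It had 32, 34 and 15 counts in TBZ replicates 1 to 3 and 67, 56 and 55 counts in control replicates 1 to 3. On the CPM scale these were 0.793, 0.835 and 0.420 in TBZ and 1.43, 1.10 and 1.32 in control. The groups did not overlap, and TBZ replicate 3 was the lowest. The log2 fold change was -0.90 ± 0.28 (SE), with a 95% interval of -1.45 to -0.34, and it missed the edgeR threshold (adjusted p = 0.337). Without TBZ replicate 3 it was -0.66, and without the 3 libraries that stand apart it was -0.60. Mt1, Mt3 and Slc30a1 were the members lower in TBZ without overlap, and 7.03% of all tested genes were so, from which nothing is read because the contrast chose the members. Mt4 had 0 counts in all 3 TBZ libraries and in 2 controls and 1 count in control replicate 3, so it was not tested.

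Mtf1, the zinc sensor, differed least among the members. It stood at 25.8, 24.2 and 25.2 CPM in TBZ and at 24.05, 25.4 and 24.8 CPM in control, and the groups overlapped. The log2 fold change was 0.02 ± 0.06 (SE, edgeR adjusted p = 0.949), and its 95% interval of -0.09 to 0.13 leaves out changes as large as that of Mt1. The value was -0.0071 without TBZ replicate 1, -0.0056 without control replicate 1 and -0.031 without the 3 libraries that stand apart. These are transcript levels. MTF1 acts through its movement to the nucleus and its binding of zinc, which were not measured.

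Slc30a1, the exporter, stood slightly lower in TBZ. The values were 35.35, 33.4 and 33.7 CPM in TBZ and 37.0, 39.2 and 35.64 CPM in control. The groups did not overlap, by a gap of under 1 CPM between TBZ replicate 1 and control replicate 3. The log2 fold change of -0.13 ± 0.05 (SE, 95% interval -0.23 to -0.02) missed the edgeR threshold (adjusted p = 0.494, unadjusted p = 0.0410). The FPKM of Mt1 over that of Slc30a1 was 12.2, 11.7 and 12.4 within TBZ replicates 1 to 3 and 17.1, 17.9 and 22.45 within control replicates 1 to 3, and the groups did not overlap. The difference in that ratio was not tested.

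Compared per length, the order of the members by level was Mt1, Slc30a1, Mtf1 and Mt3. Mt2, whose values are uncertain, overlapped Mt3 in TBZ and lay below it in control. Mt1 had 82.3, 74.1 and 79.4 FPKM in TBZ and 121, 133 and 152 FPKM in control. That placed it at rank 488 to 544 from the top among 17060 to 17120 protein-coding genes with a read in TBZ libraries, and at rank 223 to 283 among 17223 to 17275 in control libraries. The deposited length of Mt1 was 1246 bases, its whole annotated span, while that of Mt2 was its 588 exonic bases. Any introns of Mt1 in that span lower its FPKM, its rank and its FPKM ratios to Mt2 and Slc30a1. Slc30a1 was at 6.35 to 6.73 FPKM in TBZ and 6.77 to 7.45 FPKM in control. Mtf1 was at 2.71 to 2.89 FPKM in TBZ and 2.70 to 2.85 FPKM in control. Mt3 was at 0.392 to 0.781 FPKM in TBZ and 1.03 to 1.34 FPKM in control. Mt2 was at 0.291 to 0.806 FPKM in TBZ and 0.602 to 0.725 FPKM in control. The order of Mt1, Slc30a1, Mtf1 and Mt3 held in each of the 6 libraries, and the FPKM ranges of these 4 genes did not overlap.

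The other zinc transporters did not move past the threshold. SLC30 proteins carry zinc out of the cytosol, and SLC39 proteins carry it in. Of 9 other SLC30 genes 7 were tested with edgeR, 0 were called and 0 had an unadjusted p under 0.05. Their median log2 fold change was 0.06, against 0.0003 over all tested genes. Slc30a5, a transporter into the secretory pathway, was at 14.04 FPKM in TBZ and 13.26 FPKM in control (log2 0.08 ± 0.04 SE, edgeR adjusted p = 0.562). Slc30a4 was at 12.38 FPKM in TBZ and 12.4 FPKM in control (log2 -0.002, edgeR adjusted p = 0.997). Its RefSeq window held 3 metal response cores. The Mt1 window also held 3, but further cores of Mt1 may lie outside it, so the 2 promoters are not ranked. Slc30a8, which loads zinc into insulin granules, had a log2 fold change of 0.56 ± 0.32 (SE, edgeR adjusted p = 0.621), with means of 0.866 FPKM in TBZ and 0.581 FPKM in control and overlapping groups. It was named after its value was seen.

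Of 14 SLC39 genes 13 were tested with edgeR, 0 were called and 1 had an unadjusted p under 0.05. Of these 9 had a positive log2 fold change and the median was 0.05. The most abundant was Slc39a1 with 51.4 FPKM in TBZ and 49.5 FPKM in control (log2 0.05 ± 0.04 SE, edgeR adjusted p = 0.700). Slc39a6 was next with 29.0 FPKM in TBZ and 29.2 FPKM in control (log2 -0.01). Slc39a7 was counted at 4.56 FPKM in TBZ and 4.48 FPKM in control, but the same-strand gene Gm20427 lies under 80.7% of its exonic bases. How reads under both genes were counted is not given, so the level and the change of Slc39a7 are uncertain. The largest difference of this family was that of Slc39a8, which imports zinc and manganese, at 19.2, 20.7 and 18.7 CPM in TBZ and 18.0, 16.4 and 13.2 CPM in control. Its groups did not overlap, as was so for 8.47% of all tested genes in the higher direction, and its log2 fold change of 0.30 ± 0.11 (SE) missed the edgeR threshold (adjusted p = 0.429). It was named after its value was seen. DESeq2 also called 0 genes of both transporter families.

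**Figure D4:**
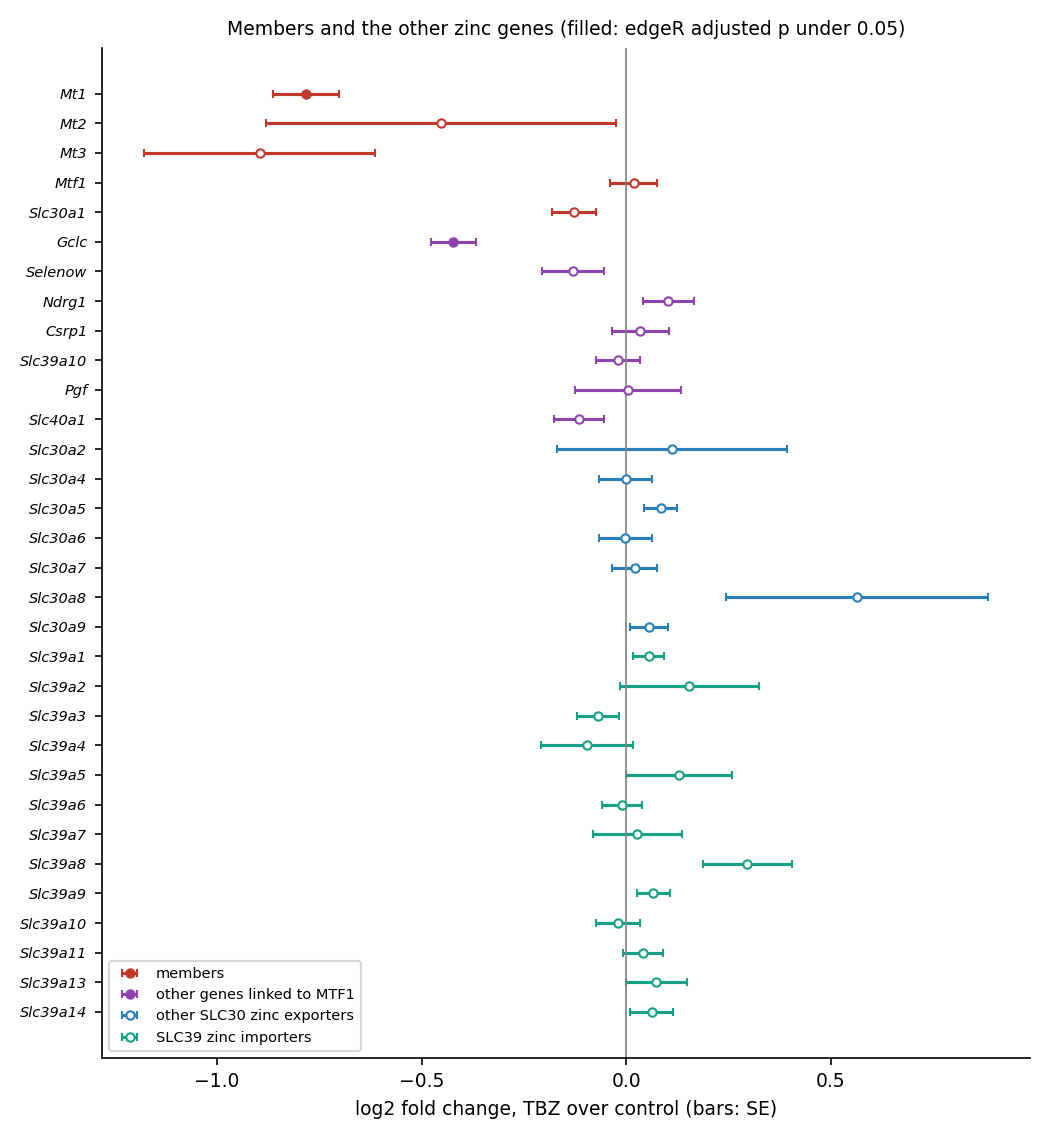
Log2 fold change of TBZ over control with SE for the members (red), other genes linked to MTF1 (purple), other SLC30 exporters (blue) and SLC39 importers (green), filled where the edgeR adjusted p was under 0.05. The filled points are Mt1 at -0.78 and Gclc at -0.42, and most transporters lie near 0.

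Among 7 other genes that have been linked to MTF1, 1 fell, 0 rose and the median log2 fold change was -0.02. The list does not separate genes that MTF1 raises from genes that it lowers, so this median is no measure of MTF1 activity. Slc39a10, Slc40a1 and Ndrg1 of this list are also counted in the SLC39, iron and hypoxia lists. The gene that fell was Gclc, the catalytic subunit for glutathione synthesis, at 66.7, 64.1 and 65.9 CPM in TBZ and 84.1, 84.6 and 94.9 CPM in control (log2 -0.42 ± 0.05 SE, edgeR adjusted p = 0.0292). Its call was lost in 9 of 15 alternatives, among them leaving out TBZ replicate 1, 2 or 3 or control replicate 2 (adjusted p from 0.0741 to 0.176), limma (0.0784 at a pseudocount of 0.5) and leaving out the 3 libraries that stand apart (0.0524). Slc40a1, the iron exporter ferroportin, had a log2 fold change of -0.12 ± 0.06 (SE, adjusted p = 0.591), and the selenoprotein gene Selenow one of -0.13 ± 0.08 (SE, adjusted p = 0.631). Gclc also stands in the list of NRF2 targets.

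No copper or iron gene passed the threshold in edgeR with its filter, while edgeR without the filter called Cox17 and Ftl1 lower (adjusted p = 0.0256 and 0.0181). Of 10 copper genes tested with edgeR 0 were called, 1 had an unadjusted p under 0.05 and the median log2 fold change was -0.02. That 1 was Cox17, which hands copper to cytochrome oxidase, with a log2 fold change of -0.81 ± 0.21 (SE, edgeR adjusted p = 0.227), named after its value was seen. Cox17 had low counts, 74, 62 and 57 in TBZ and 109, 136 and 156 in control. The same-strand gene Gm21987 lies under 257 of its 5773 exonic bases, and how reads under both genes were counted is not given. The copper chaperone gene Atox1 was at 87.4 FPKM in TBZ and 89.5 FPKM in control. The superoxide dismutase gene Sod1 had a log2 fold change of -0.07. Of 13 iron genes 0 were called by edgeR, 9 had a negative log2 fold change and the median was -0.05. An unadjusted p under 0.05 was found for 4, all lower, against 4.54% of all tested genes in that direction. They were Ftl1, Fth1, Hmox1 and Steap3, and Ftl1, Fth1 and Hmox1 are counted again among the NRF2 targets. The ferritin genes Fth1 (log2 -0.15 ± 0.05 SE) and Ftl1 (-0.20 ± 0.05 SE) had groups that did not overlap, as had 7.03% of all tested genes in the lower direction. Their edgeR adjusted p-values were 0.391 and 0.251. Antisense or embedded genes lie under 34.6% of the exonic bases of Ftl1.

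Lists for other inducers of metallothionein were counted in the same way. NRF2 is the factor that drives antioxidant genes. Of 25 tested NRF2 targets 22 had a negative log2 fold change, where 49.9% of all tested genes did, 3 fell, 0 rose and the median was -0.19. The 3 that fell were Srxn1, Nqo1 and Gclc. Of the 25 targets 19 were lower with an unadjusted edgeR p under 0.05, against 4.54% of all tested genes. Without overlap 15 were lower, against 7.03% of all tested genes. The list was made with falls among its members known, so its direction is not independent evidence. Nqo1, a quinone reductase, stood at 11.3, 10.4 and 8.18 CPM in TBZ and 20.6, 19.3 and 22.5 CPM in control (log2 -1.06 ± 0.12 SE, edgeR adjusted p = 0.0160). The count of NRF2 targets called lower ran from 0 to 8 over the alternatives. It was 6 with DESeq2, which called 0.336% of all genes lower, and 8 with edgeR and no filter, which called 0.582% lower. It was 1 with limma on log2(FPKM + 0.1), where Nqo1 missed the threshold (adjusted p = 0.0532), and 0 with limma and no filter on FPKM. Of 12 glucocorticoid response genes 0 were called by edgeR and 2 had an unadjusted p under 0.05, with a median of -0.03, and the 2 most abundant were Ddit4 (log2 -0.07) and Errfi1 (0.15). Of 10 heat shock genes 0 were called and 1 had an unadjusted p under 0.05, with a median of -0.0006, Hspa8 at 0.11 and Hspd1 at -0.04. Of 9 hypoxia response genes 0 were called and 3 had an unadjusted p under 0.05, with a median of -0.01, Vegfa at 0.22 and Slc2a1 at -0.10. DESeq2 called 1 glucocorticoid response gene, Sgk1, higher and 0 of the heat shock and hypoxia genes. Without the filter edgeR called Sgk1 (adjusted p = 0.00249) and, of the hypoxia genes, Vegfa (adjusted p = 0.0224) higher.

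The gene closest to Mt1 over the 6 libraries was Srxn1, which encodes sulfiredoxin. Closeness was the root mean square difference in log2 CPM after centring each gene on its mean, over 12205 other tested protein-coding genes with a mean of at least 1 FPKM in a group. It was 0.07 for Srxn1, 0.12 for the chemokine gene Ccl20, 0.14 for Tstd1, 0.15 for the transcription factor gene Batf3 and 0.16 for Pir, which encodes pirin. Srxn1 stood at 40.2, 37.2 and 41.4 CPM in TBZ and 65.5, 65.2 and 71.4 CPM in control (log2 -0.77 ± 0.06 SE, edgeR adjusted p = 0.00333). Like Mt1 it was highest in control replicate 3 and lowest in TBZ replicate 2.

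Ccl20, Tstd1, Batf3 and Pir had log2 fold changes of -0.79, -0.70, -0.63 and -0.79 with groups that did not overlap, and none was called by edgeR with its filter (adjusted p from 0.140 to 0.389). Pir was called with DESeq2 (adjusted p = 0.00301), and Pir and Ccl20 were called by edgeR without the filter. By the same measure Slc30a1 came at rank 1115 from Mt1, Mt3 at 2463 and Mtf1 at 5569. Most of the spread of Mt1 lay between the groups, so this measure largely sorts genes by the contrast that chose Mt1. Neither the genes closest to Mt1 nor these ranks are separate evidence. The genes closest to Mt2 were mt-Co2, Gm32687, Gm10036, Tbx6 and mt-Co3 at 0.18 to 0.32, and since the counts of Mt2 are uncertain nothing is read from them.

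**Figure D5:**
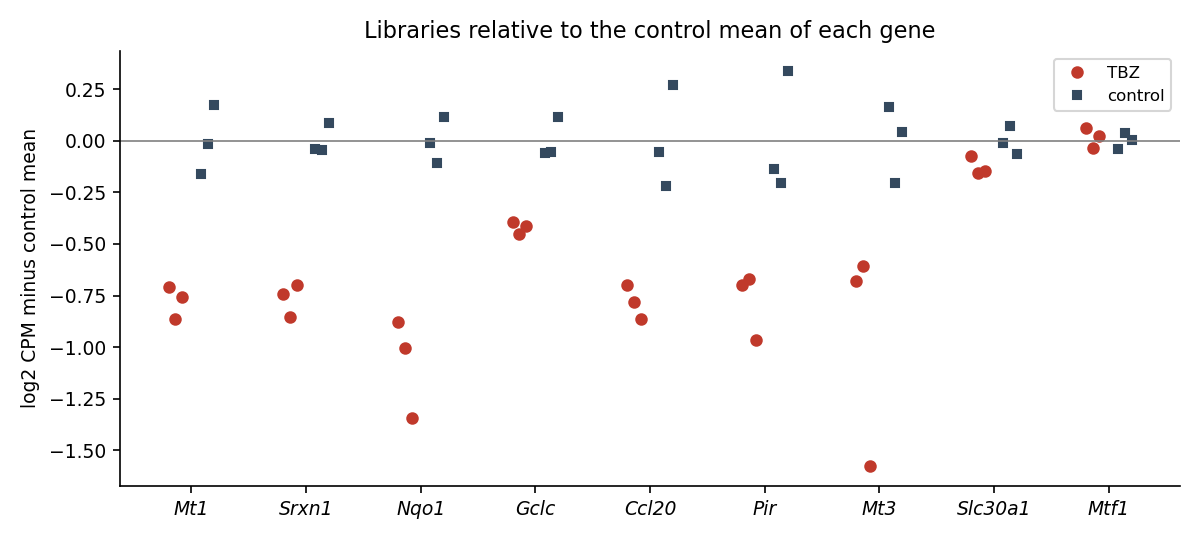
Log2 CPM of each library minus the control mean of the gene, for TBZ (red circles, left) and control (dark squares, right). Mt1, Srxn1 and Pir lie near -0.7 to -1.0 in TBZ, while in TBZ Slc30a1 lies between -0.16 and -0.08 and Mtf1 between -0.03 and 0.06.

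Genes with many metal response cores had about the same median as all others. Of 478 tested genes with at least 3 matches in a RefSeq window, Mt1 was the 1 gene called, 47.5% had a negative log2 fold change and the median was 0.005. Of 7584 genes with 0 matches, 48.6% had a negative log2 fold change, 3 were called lower, 12 were called higher and the median was 0.003. At least 1 match stood in 25.7% of all RefSeq windows, so matches do not mark the genes that MTF1 controls. Nothing about MTF1 is read from these medians, and its part was not tested. Of the 5 genes that were called lower and had a window, Srxn1 held 1 metal response core and 1 antioxidant response core, and Nqo1 held neither in its window.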

How the data were processed

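Poly-A RNA of 3 TBZ and 3 control libraries was sequenced as paired reads. The submitters' processing notes name STAR, HTSeq and the mm10 build; versions and counting mode are not given in the sources used here. Per the file headers, the deposited table gives raw counts and FPKM per library. The signal columns hold the authors' group means of counts over size factors, which were computed again from the counts to within 5.77e-15. The log2 fold changes, p-values and adjusted p-values are the authors' own, per the file headers.

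Genes were tested with the edgeR quasi-likelihood test on counts (TMM scaling, filterByExpr, Benjamini-Hochberg over 18226 genes, threshold 0.05). The SE divides the size of each log2 fold change by the root of its F statistic. The 95% intervals are 1.96 SE either way, which is approximate and narrower than the F test implies. That of Slc30a5 runs from 0.0027 to 0.16, although its unadjusted edgeR p was 0.073. Values per group are mean and SD. Overlaps used GENCODE M21 exons, where 98.33% of 54409 matched genes had the deposited start and end. Promoter sequences and motif shares are from RefSeq (GRCm38.p6), which matched all 5 members and Mt4. The members and the lists were chosen with earlier results of these data known. The rule named the members and Mt4, 3 genes from lists with a call or the 2 most abundant from others, and the 5 genes closest to Mt1 and to Mt2; other names were chosen after values were seen. Results were recomputed with each library left out, with DESeq2, with RLE scaling, without a filter, with replicate number as a block, and with limma on log2(FPKM + 0.5) or log2(FPKM + 0.1). Thinning and leaving out 3 libraries were added after the data were seen. Scripts were tested on simulated data. Software was Python 3.11.15 and R 4.3.3 with DESeq2 1.42.0, limma 3.58.1 and edgeR 4.0.16. Protein sequences were not used here.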

Additional observations from a re-analysis of the deposited data

How the results depend on the processing

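The log2 fold change of Mt1 kept its sign in all 15 alternatives, from -0.86 to -0.69, and stayed past the threshold in 12. Besides the fits given above, it missed with the replicate number as a block (-0.78, adjusted p = 0.0573), where the count of genes was 5. Replicate numbers were not taken as pairs: same-numbered libraries deviated together with correlations of 0.00432, -0.154 and -0.0791, and no TBZ library correlated best with its own number. With libraries left out in turn Mt1 ranged from -0.86 to -0.69 (adjusted p 0.00412 to 0.0995), Mt2 from -1.03 to -0.19, Mt3 from -1.06 to -0.66, Slc30a1 from -0.16 to -0.09 and Mtf1 from -0.0071 to 0.044, negative also without control replicate 1 (-0.0056). No alternative called Mt2, Mt3, Mtf1 or Slc30a1.

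The count of changed genes was 34, against 222 with DESeq2, 445 with no expression filter, 14 and 13 with limma at pseudocounts of 0.5 and 0.1 and 0 with limma and no FPKM filter (2135 at an unadjusted p under 0.05). With the replicate block 1 NRF2 target was called lower, and Gclc and Nqo1 missed (adjusted p = 0.117 and 0.114). Srxn1 missed in 1 alternative, limma with no FPKM filter (0.0762). The count of changed genes ran from 5 to 36 with single libraries left out, and was 5 without TBZ replicate 3, 11 without TBZ replicate 1 and 13 without control replicate 2. Without control replicate 3 and TBZ replicates 1 and 3, which stand apart on the first principal component, Mt1 was at -0.78 (adjusted p = 0.00721) and Mtf1 turned to -0.031. Thinned to the smallest library, Mt1 was at -0.78. Genes near 0 changed sign in some fits: Slc30a4 was at 2.86e-05 with the replicate block and ran from -0.060 to 0.052 with single libraries left out, positive without TBZ replicate 3 and without control replicates 1 and 2. In the same way Slc39a6 ran from -0.051 to 0.016, Atox1 from -0.087 to 0.0025 and Gm32687 from -0.42 to 0.030. The cause of these differences was not tested. Counts of 7 to 20 limit Mt2 and counts of 15 to 67 limit Mt3.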
